A study of Mus musculus with 18 samples.

Results

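Broad ChIP-seq peaks at genes of the mouse heart, and the RNA polymerase II (Pol II) signal in them, are described here. A broad peak is a region of the deposited peak table, which merges the peaks of all Pol II, CTCF and IgG libraries, that was at least 5000 nt long, lay on chromosomes 1 to 19 and carried a gene ID. Of 101256 regions, called union peaks below, 37450 lay on these chromosomes with a gene ID, and 190 of them were broad peaks. Each belonged to a different gene. The length chose them, and length follows from where signal was found, so lengths, densities and the genes themselves are given as a description, with no test. Only the differences between genotypes were tested.

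The study used ChIP-seq of ventricles to ask where Pol II stands on chromatin when an antisense RNA of *Trdn*, or the m6A methyltransferase METTL3, is missing. WT is the label of the controls. *Trdn-as* KO mice carry a polyA signal in the first exon of *Trdn-as* that stops its transcription early. *Mettl3* KO mice (Mettl3lox/lox:alphaMHC-MerCreMerpos) carry floxed *Mettl3* and a tamoxifen-inducible Cre driven by the *Myh6* (alphaMHC) promoter, so that only cardiomyocytes are meant to lose *Mettl3*, and the other cells of the heart keep it. By the study's methods, mice of this line and floxed controls without Cre were injected with tamoxifen. The sources used here do not say whether the WT mice of the ChIP were such controls. Tamoxifen, Cre and the loss of *Mettl3* therefore cannot be told apart in comparisons of *Mettl3* KO. The animals were adult, and chromatin was made from 2 hearts. Each genotype had 2 libraries for Pol II, 2 for CTCF, a DNA-binding protein that marks chromatin boundaries, and 1 for IgG as background. The sources used here do not say which libraries came from separate hearts, so p-values measure the spread between these libraries, which may be technical.

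Pol II collects at a gene's start, where it pauses, moves through the gene body and slows again beyond the polyA site before it leaves the DNA. At most genes the signal is a narrow peak at the start. Where a gene is transcribed very often, polymerases follow each other closely, and signal from the start, the body and the stretch past the end can run together into 1 long region. In heart muscle, genes of the contractile apparatus are of this kind.

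The values are reads per peak divided by a DESeq2 size factor per library and rounded, and are called normalized signal here. The 6 Pol II libraries held between 1991580 and 4949640 reads in union peaks, estimated from the spacing of their values. That was 35.6% to 42.5% of the uniquely mapped reads in 5 libraries and 18.6% in *Trdn-as* KO replicate 2. This library stands apart: its normalized signal was below that of *Trdn-as* KO replicate 1 at all 190 broad peaks, by a median log2 difference of -0.30, while the median absolute log2 difference between replicates was 0.06 in WT and 0.05 in *Mettl3* KO. At the targeted *Trdn-as* promoter peak, which was 3126 nt long and therefore not a broad peak, signal was 530 and 595 (WT), 140 and 100 (*Trdn-as* KO), and 503 and 491 (*Mettl3* KO). Which part of *Mettl3* is floxed is not given in the sources used here, and its promoter peak was not used as a check. *Trdn* itself had no broad peak. The cardiomyocyte markers *Myh6*, *Actc1*, *Tnnt2*, *Tnni3*, *Myl2*, *Ryr2* and *Pln* all had Pol II peaks, while 3 of 5 atrial markers (*Myl4*, *Myl7* and *Sln*) and all 5 erythroid markers had no annotated peak. Peaks were annotated to 9 of 9 fibroblast, 11 of 12 endothelial, 7 of 7 smooth muscle and 7 of 8 leukocyte markers. The same held for 5 of 8 skeletal muscle and 2 of 5 adipocyte markers. *Pecam1* (endothelial) and *Csf1r* (macrophage) had none, so a missing annotated peak does not show that a cell type was absent.

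Promoter sequences are shown for 6 broad-peak genes whose Pol II signal differed between a knockout and WT, since these are the genes the comparisons turn on. They come from RefSeq for GRCm38.p6, an older build than the GRCm39 of the peak table, so their coordinates must not be set against those of the peaks. Each runs 5′ to 3′ along the gene's own strand from 250 bases before its start to 50 bases after. Capitals mark 4 short motifs on both strands: the E-box CACGTG, bound by clock activators, the MCAT element CATTCC or GGAATG, bound by TEAD factors in muscle, the CCAAT box CCAAT or ATTGG, and the TATA box TATAAA or TTTATA. No base belonged to more than 1 of the marked motifs. For *Myh7* and *Per1* the first of 2 listed starts is shown.
Dbp, chr7:45704997-45705296 (+ strand): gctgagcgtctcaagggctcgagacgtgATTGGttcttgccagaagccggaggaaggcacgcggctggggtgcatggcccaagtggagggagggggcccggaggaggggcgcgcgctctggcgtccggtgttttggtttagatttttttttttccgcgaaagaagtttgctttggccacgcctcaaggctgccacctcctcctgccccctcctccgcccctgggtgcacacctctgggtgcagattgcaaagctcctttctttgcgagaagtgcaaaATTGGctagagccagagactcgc
Txnip, chr3:96557707-96558006 (+ strand): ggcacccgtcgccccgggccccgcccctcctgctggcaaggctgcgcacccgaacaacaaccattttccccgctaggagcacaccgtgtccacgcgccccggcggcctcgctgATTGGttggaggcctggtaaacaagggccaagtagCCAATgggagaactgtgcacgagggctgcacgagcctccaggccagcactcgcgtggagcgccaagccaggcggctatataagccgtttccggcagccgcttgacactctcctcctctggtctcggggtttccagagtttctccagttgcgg
Myh6, chr14:54966558-54966857 (- strand): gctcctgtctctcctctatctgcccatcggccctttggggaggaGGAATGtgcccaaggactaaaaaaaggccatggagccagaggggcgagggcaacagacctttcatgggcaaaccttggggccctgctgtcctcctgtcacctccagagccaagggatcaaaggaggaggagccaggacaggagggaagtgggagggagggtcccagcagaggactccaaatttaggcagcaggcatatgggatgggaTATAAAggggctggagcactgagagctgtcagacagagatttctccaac
Myh7, chr14:54994577-54994876 (- strand): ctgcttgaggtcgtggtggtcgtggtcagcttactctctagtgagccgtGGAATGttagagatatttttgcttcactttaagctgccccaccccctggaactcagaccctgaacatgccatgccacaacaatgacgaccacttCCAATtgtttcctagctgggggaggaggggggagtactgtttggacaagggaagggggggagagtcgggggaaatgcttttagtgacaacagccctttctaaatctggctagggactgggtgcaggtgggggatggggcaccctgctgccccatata
Per1, chr11:69098699-69098998 (+ strand): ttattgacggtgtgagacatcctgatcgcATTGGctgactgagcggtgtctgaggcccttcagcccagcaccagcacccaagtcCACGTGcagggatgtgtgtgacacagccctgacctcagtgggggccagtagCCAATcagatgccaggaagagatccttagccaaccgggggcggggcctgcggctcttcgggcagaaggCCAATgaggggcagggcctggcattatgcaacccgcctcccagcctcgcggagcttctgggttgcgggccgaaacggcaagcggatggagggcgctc
Ankrd1, chr19:36119795-36120094 (- strand): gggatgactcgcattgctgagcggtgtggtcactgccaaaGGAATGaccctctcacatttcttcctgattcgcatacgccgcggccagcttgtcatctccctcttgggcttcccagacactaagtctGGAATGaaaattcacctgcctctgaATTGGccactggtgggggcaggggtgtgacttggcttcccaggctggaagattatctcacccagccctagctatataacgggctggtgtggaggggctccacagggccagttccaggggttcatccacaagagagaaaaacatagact

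Among these 6 windows the E-box was found in *Per1* only, starting 166 bases before the start. The MCAT letters were found in *Myh6*, *Myh7* and *Ankrd1*, 206, 201 and 210 bases before the start, and a further time in *Ankrd1* at 123 bases before it. CCAAT letters were in 5 of the 6 windows, *Myh6* being the exception, and the TATA letters only in *Myh6*, where they began at base 2 after the listed start. Only TATAAA and TTTATA were searched, so the tatataa in the *Txnip* and *Ankrd1* windows was not marked. The search does not show that these promoters lack a TATA box. Of the 190 broad-peak genes, 129 had an entry in the table, with 181 starts. The E-box was in 7.18% of these windows and in 7.15% of all 32851 windows of the same length. The MCAT letters were in 20.4% against 14.7%, the CCAAT letters in 46.4% against 37.4% and the TATA letters in 10.5% against 13.6%. A match is a run of letters and not a bound site.

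The 190 broad peaks ran from 5007 to 32955 nt, with a median of 6156 nt, and 27 were at least 10000 nt long. They covered 1402 kb. This was 2.22% of the summed length of all union peaks, and the broad peaks held 6.29% of the WT Pol II signal in union peaks. By annotation 167 were protein-coding genes, 16 lncRNA genes, 3 miRNA genes and 2 misc_RNA genes. All 19 autosomes had at least 1, with 16 on chromosome 11 and 2 on chromosome 16. The longest was at *Myh6*, the α-myosin heavy chain gene, on chromosome 14 from 55181949 to 55214903 (GRCm39), and it alone held 3.82% of the WT Pol II signal of the broad peaks. It reached 10519 nt upstream of the *Myh6* start, over the 3′ end of the neighboring *Myh7* gene, and was followed after 10556 nt by the broad peak at *Myh7*, the β-myosin heavy chain gene, from 55225460 to 55246065 (20606 nt). The broad peak of *Cmtm5* ended 78 nt from the other side of the *Myh6* peak, so that 3 broad peaks lay in a row.

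Next in length came a 24562-nt peak on chromosome 19 from 5878218 to 5902779. Its annotated gene, ENSMUSG00002076852, is a misc_RNA of 152 nt. The peak also overlapped *Frmd8*, and in the RefSeq gene order of GRCm38.p6 the nuclear lncRNA gene *Neat1* lies between *Malat1* and *Frmd8*. A 12240-nt peak named for another misc_RNA, ENSMUSG00002076626, covered *Malat1*. The peak at *Mir133a-2*, which encodes the muscle microRNA miR-133a, was 22980 nt long on chromosome 2 from 180026664 to 180049643, and the second copy, *Mir133a-1*, had a broad peak of 10945 nt. The other members of the 10 longest were *Tnnt2* (15705 nt, cardiac troponin T), *Myl2* (15039 nt, ventricular myosin light chain), *Pln* (14867 nt, the inhibitor of the SERCA calcium pump), Gm20532 (14472 nt, also over *Agpat2* and *Egfl7*), *Actc1* (13642 nt, cardiac α-actin) and *Setd1b* (12908 nt, an H3K4 methyltransferase). Together the 10 longest held 18.0% of the WT Pol II signal of the broad peaks.

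Most broad peaks held the start of their gene. The annotated start lay inside 176 of the 190, and among these the peak reached a median of 2179 nt upstream and 4266 nt downstream of it. In 139 of the 176 it reached further downstream. In 50 cases the whole gene lay inside the peak. These genes were short, with a median length of 2543 nt, and the peak continued a median of 2466 nt past the gene's end. In 126 cases the peak held the start but not the end, and these genes had a median length of 19419 nt. In 4 cases (*Gm15180*, *Mir1191b*, *Ankrd9* and *Myoz1*) the peak did not touch its annotated gene.

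The name of a broad peak is therefore not always the gene that carries it. Another annotated gene of the table overlapped 87 of the 190. The peak of *Pnmt*, which codes for the enzyme that makes adrenaline from noradrenaline, also covered *Tcap*, the gene of the Z-disc protein telethonin, and overlapped *Pgap3*. The *H2-DMa* peak overlapped *Brd2*, and the peak of *Tnnt1* overlapped *Tnni3*. ChIP reads do not carry the direction of transcription, so signal of overlapping genes cannot be told apart.

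Since length set the membership, the peaks at its edge are given once. Just inside were *Tmc8* (5007 nt), *Cfl1* and *S1pr1* (5019 nt each), *2900089D17Rik* (5026 nt), *Hes1* (5028 nt), *Fat4* (5037 nt) and *Foxo3*, the last within 50 nt of the limit, with WT Pol II densities from 62.9 (*Fat4*) to 287 (*Cfl1*) per kb. Just outside were *Usf2* (4958 nt), ENSMUSG00000121581 (4981 nt), *Cracr2b* (4982 nt), *Jarid2* (4991 nt) and *Pim1* (4995 nt), with densities from 79.6 (*Cracr2b*) to 203 (*Usf2*).

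Pol II density, the normalized signal per kb of peak, had a WT median of 196 over the broad peaks and ran from 56.7 at *Tjp3* to 382 at *Pnmt*, a 6.74-fold range. The middle of the distribution, from the 25th to the 75th percentile, was 138 to 239. Density was 151 in the 2533 peaks with a gene ID of at least 2000 and under 5000 nt, called mid-length peaks below, and 129 in the 8190 peaks of at least 1000 and under 2000 nt (medians). Among broad peaks Spearman's rho between length and WT density was 0.34, a description over 190 peaks of the same 2 libraries. Peaks that held a whole gene had a median density of 233, and those with the start but not the end 182. Between the WT replicates a broad peak's density varied by a median of 2.93% of its mean (SD, n = 2).

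**Figure D1:**
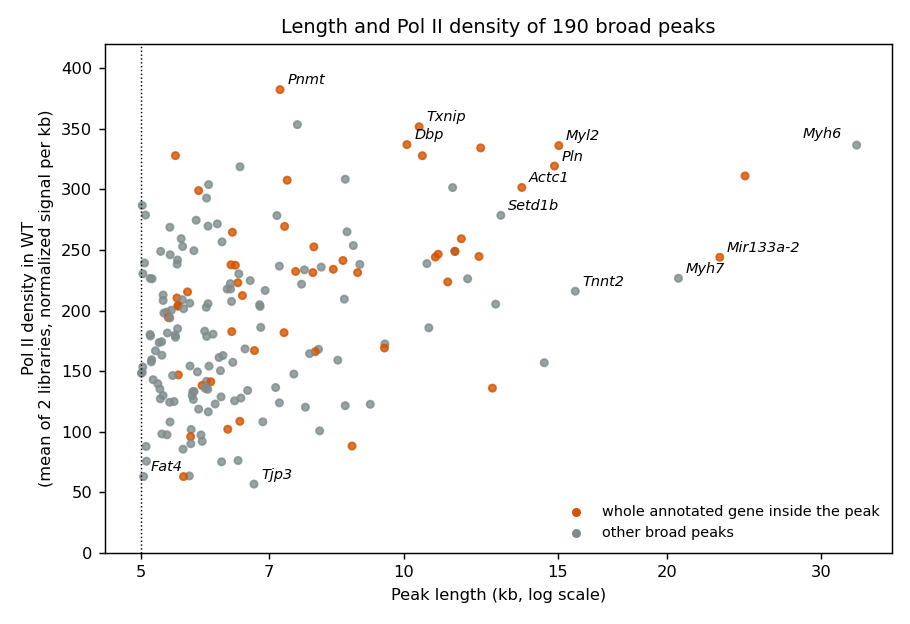
Peak length in kb (log scale) against WT Pol II density (mean of 2 libraries, normalized signal per kb) for 190 broad peaks. Orange points hold their whole annotated gene, and the dotted line marks 5 kb. *Myh6*, at 32955 nt, is the longest, and *Pnmt*, at 382 per kb, the densest.

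The *Pnmt* peak, on chromosome 11 from 98273797 to 98281011, had 376 and 389 per kb in WT, 408 and 340 (*Trdn-as* KO), and 295 and 285 (*Mettl3* KO). The *H2-DMa* peak had 351 and 356 (WT), 375 and 337 (*Trdn-as* KO), and 384 and 416 (*Mettl3* KO). The *Txnip* peak, whose gene encodes an inhibitor of thioredoxin and of glucose uptake, had 357 and 347 (WT), 272 and 216 (*Trdn-as* KO), and 401 and 414 (*Mettl3* KO). In *Mettl3* KO both libraries were thus below WT at *Pnmt* and above it at *H2-DMa* and *Txnip*. *Dbp*, a transcription factor gene driven by the daily clock, had 327 and 347 (WT), 324 and 246 (*Trdn-as* KO) and 170 and 164 (*Mettl3* KO). *Myh6* had 323 and 350, then 300 and 231, then 342 and 351, in the same order of genotypes. *Myl2* had 323 and 349, 358 and 297, and 356 and 350. *Dbp* was lowest in *Mettl3* KO, *Myh6* in *Trdn-as* KO, and at *Myl2* the *Trdn-as* KO libraries spanned all others.

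The remaining 4 of the 10 densest had WT means of 334 (ENSMUSG00002076626, over *Malat1*), 328 (ENSMUSG00000120746, a lncRNA), 328 (Gm49540, a lncRNA) and 319 (*Pln*). At the other end stood *Plekhn1* with 75.1 ± 14.7 per kb, *Arhgap27* with 63.5 ± 9.83, *Fat4* with 62.9 ± 0.562, *Rex1bd* with 62.9 ± 1.26 and *Tjp3* with 56.7 ± 5.25 (mean ± SD, n = 2). The order among the densest is not firm: the SDs of the 10 were between 3.84 and 18.7, and from *H2-DMa* (353) and *Txnip* (352) or from *Dbp* (337), *Myh6* (337) and *Myl2* (336) no order beyond the spread can be read.

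**Figure D2:**
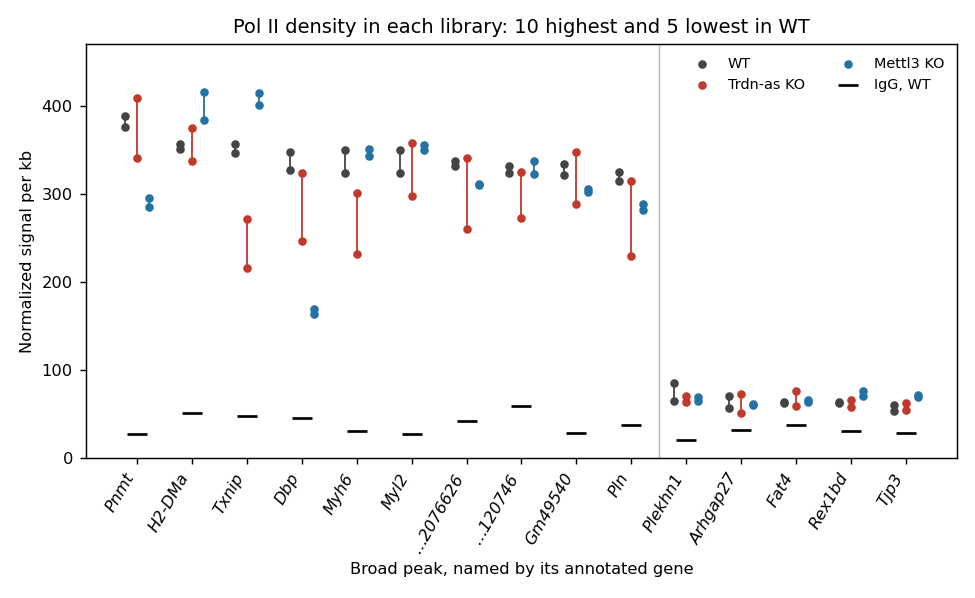
Pol II density (normalized signal per kb) of the 10 densest and 5 least dense broad peaks, 1 point per library, with lines joining the replicates of a genotype and black bars for the WT IgG library. *Dbp* is at 170 and 164 (*Mettl3* KO) against 327 and 347 (WT), and its *Trdn-as* KO replicates are at 324 and 246.

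The IgG library of WT had a median of 38.2 per kb over the broad peaks on the deposited scale, but size factors differ between targets, so this scale does not give enrichment. With RPM, reads scaled to all uniquely mapped ones, the median per kb was 16.5 and 17.6 in the WT Pol II libraries and 0.907 in the WT IgG library. Broad peaks therefore had a median of 18.3 times the IgG level, from 6.20 to 51.9 times. In *Trdn-as* KO the Pol II medians were 14.9 and 7.65 RPM per kb, and in *Mettl3* KO 14.6 and 16.2.

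CTCF density varied widely among the broad peaks. In WT it had a median of 41.5 per kb (6.55 to 98.9), against 49.2 in mid-length peaks, and Spearman's rho with Pol II density was -0.07 over 190 peaks, as a description. CTCF was not compared with IgG in reads, so these densities are not levels above background. The ratio of CTCF to Pol II was lowest at *Myh6* (0.027), *Actc1* (0.043), *Mir133a-1* (0.045), *Myh7* (0.056) and Gm10435 (0.056). The first 4 of these are genes of heart muscle. The ratio was highest at *Tjp3* (1.29), *Rex1bd* (1.28), *Fat4* (1.13), *Arhgap27* (0.907) and ENSMUSG00000120538 (0.769). Size factors differ between the targets, so a ratio above or below 1 does not say which protein was more abundant. The first 4 were also among the 5 least dense in Pol II, which enters the ratio.

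**Figure D3:**
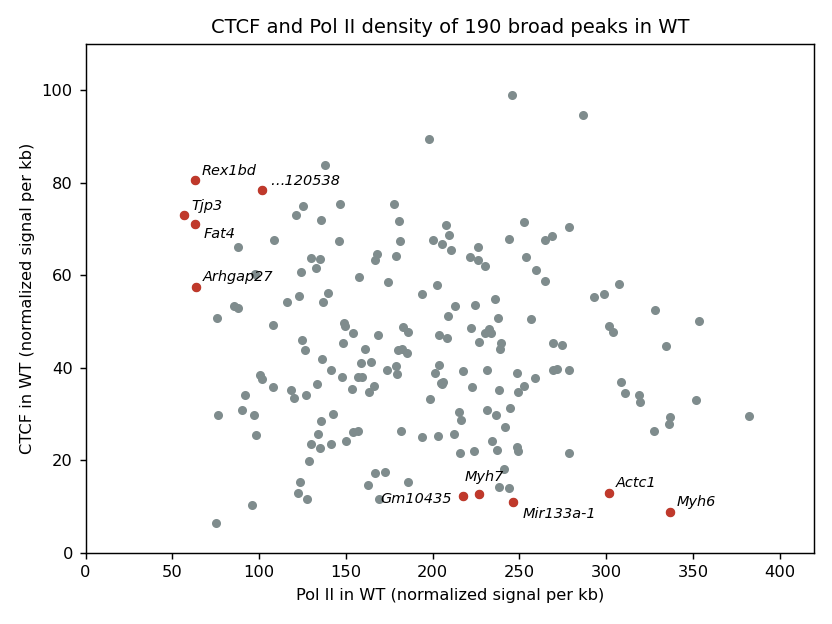
CTCF against Pol II density (normalized signal per kb, means of 2 WT libraries) for 190 broad peaks, with the 5 highest and 5 lowest ratios in red. *Myh6* lies at 337 for Pol II and 8.92 for CTCF.

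Grouped by function, broad peaks were counted in each gene list, and the lists differ in length, the sarcomere list being the longest. The lists of immediate early, clock, fetal and stress, and oxidative phosphorylation genes hold some genes under both an older and a newer symbol. *Cyr61* and *Ccn1* are an example. For these lists the number given is of symbols, and the number of genes is smaller. Of 38 sarcomere and Z-disc genes in the list, 31 had an annotated peak and 14 a broad one: *Myh6*, *Myl2*, *Actc1*, *Tnnc1*, *Lmod2*, *Tpm1*, *Myh7*, *Tnnt2*, *Ldb3*, *Csrp3*, *Flnc*, *Ankrd1*, *Xirp1* and *Mybpc3*. Their median WT density was 221 per kb (123 to 337) and their median length 10068 nt, against 6156 nt for all broad peaks. *Synpo2l*, *Tcap* and *Tnni3* were overlapped by broad peaks named for other genes. Among 17 calcium-handling genes *Pln* (319 per kb) and *Atp2a2* (249), the SERCA pump gene, had broad peaks, and *Ryr2*, *Casq2* and *Trdn* did not. Of 18 ion channel, pump and connexin genes 3 had one, among them the connexin-43 gene *Gja1* (203) and *Kcnj11* (183).

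Of 24 genes of fatty acid use *Fabp3* (224 per kb), the heart fatty acid binding protein, and *Lpl* (206), lipoprotein lipase, had broad peaks. Of 26 genes of glycolysis, the TCA cycle and the phosphagen system they were *Slc25a4* (249), the ADP/ATP carrier, and *Eno3* (237), muscle enolase. None of 17 symbols of oxidative phosphorylation genes had one, although the *Baz2a* peak overlapped *Atp5b*. Of 12 noncoding RNA genes none had one under its own name. These counts were not compared by a test.

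Of 27 cardiac and metabolic factors 9 had broad peaks, with a median of 154 per kb, among them *Foxo3* (239), *Mef2d* (234), *Ppargc1b* (217) and *Gata6* (159). Of 21 symbols of immediate early genes, which respond to stimuli within minutes, 8 had one: *Jund* (299), *Jun* (265), *Junb* (253), *Ier2* (238), *Klf2* (212), *Klf4* (194), *Ccn1* (166) and *Myc* (97.4). Of 20 symbols of daily clock genes 5 had one: *Dbp* (337), *Per1* (265), *Nr1d1* (259), *Bhlhe40* (207) and *Nfil3* (124). Among 14 symbols of fetal and stress genes it was *Fhl2* (238), *Myh7* (227) and *Ankrd1* (128), and of 17 heat shock and chaperone genes *Hspb7* (245) alone. Of 12 endothelial markers *Esam* (174) and *Fabp4* (167) had broad peaks, and no marker of fibroblasts, leukocytes, smooth muscle, adipocytes, erythroid cells, skeletal muscle or atria did.

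The share of all Pol II signal in union peaks that lay in broad peaks was 6.26% and 6.31% (WT), 6.06% and 5.96% (*Trdn-as* KO) and 5.56% and 5.68% (*Mettl3* KO). The genotypes did not overlap: WT was highest and *Mettl3* KO lowest, at 0.664 percentage points below WT (means of 6.29 ± 0.0376 and 5.62 ± 0.0874, SD, n = 2). The exact two-sided permutation test gave p = 0.33 for each pair of genotypes, which is the smallest p that 2 against 2 libraries can give. In the IgG libraries the share was between 2.59% and 2.78%.

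In *Trdn-as* KO hearts 5 of 190 broad peaks had lower Pol II signal than in WT and none had higher signal (limma, adjusted p below 0.05 over all tested peaks). They were *Txnip*, *Ankrd1*, *Lrrc10*, *Myh6* and *Per1*. All 190 passed the filter on low values, and 2.63% were called, against 0.304% of all 52655 peaks tested (0.0798% higher and 0.224% lower). The median standard error was 0.13 on the log2 scale for broad peaks and 0.44 for all. Of the mid-length peaks 0.158% were called. At an unadjusted p below 0.05 there were 31 broad peaks. The median log2 fold change was -0.08 for broad peaks and -0.07 for all, and *Trdn-as* KO libraries were both below both WT libraries at 51 broad peaks and both above at 5, against 19.1% and 12.9% of all peaks tested.

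*Txnip* had a normalized signal of 3711 and 3610 (WT), 2830 and 2244 (*Trdn-as* KO), and 4172 and 4312 (*Mettl3* KO). The *Trdn-as* KO libraries were below all others, and the log2 fold change against WT was -0.54 ± 0.10 (SE, limma adjusted p = 0.0015). *Ankrd1*, a stress-responsive ankyrin repeat protein of the sarcomere, had 765 and 898 (WT) and 607 and 419 (*Trdn-as* KO), a log2 fold change of -0.72 ± 0.15 (limma adjusted p = 0.0086). *Lrrc10*, which encodes a leucine-rich repeat protein of cardiomyocytes, had 1516 and 1696 against 1241 and 926, a log2 fold change of -0.58 ± 0.13 (limma adjusted p = 0.013). In neither did the genotypes overlap, and in both replicate 2 of *Trdn-as* KO was the lower one.

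*Myh6* had 10654 and 11527 (WT) and 9901 and 7625 (*Trdn-as* KO), a log2 fold change of -0.35 ± 0.08 (limma adjusted p = 0.029). *Per1*, a repressor of the daily clock that is itself switched on through E-boxes, had 2240 and 2322 against 1812 and 1494, a log2 fold change of -0.47 ± 0.11 (limma adjusted p = 0.042). Without *Trdn-as* KO replicate 2, the library that stands apart, *Txnip* (log2 fold change -0.37, limma adjusted p = 6.7e-04) and *Per1* (-0.33, adjusted p = 0.018) were called. A single library then stands for *Trdn-as* KO, which is assumed to vary like the WT and *Mettl3* KO pairs that give all of the spread, so these p-values say nothing of the spread within *Trdn-as* KO. *Myh6* (-0.16, adjusted p = 0.18), *Lrrc10* (-0.37, adjusted p = 0.091) and *Ankrd1* (-0.45, adjusted p = 0.14) were not, and *Josd2*, a deubiquitinase gene, was called higher (0.34, adjusted p = 0.021). Without *Trdn-as* KO replicate 1 there were 93 calls, all lower, and without either WT library or either *Mettl3* KO library there were none. In a model of the 4 WT and *Trdn-as* KO libraries none of the 5 was called, and scaling to uniquely mapped reads, which moved the median of all peaks to -0.67, also left none. Scaled to the total signal in union peaks, 5 broad peaks were higher and 26 lower. Pol II signal at the 6 union peaks on chromosome Y summed to 279 and 326 (WT), 0 and 0 (*Trdn-as* KO) and 223 and 239 (*Mettl3* KO), so sex and genotype cannot be told apart in comparisons of *Trdn-as* KO.

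**Figure D4:**
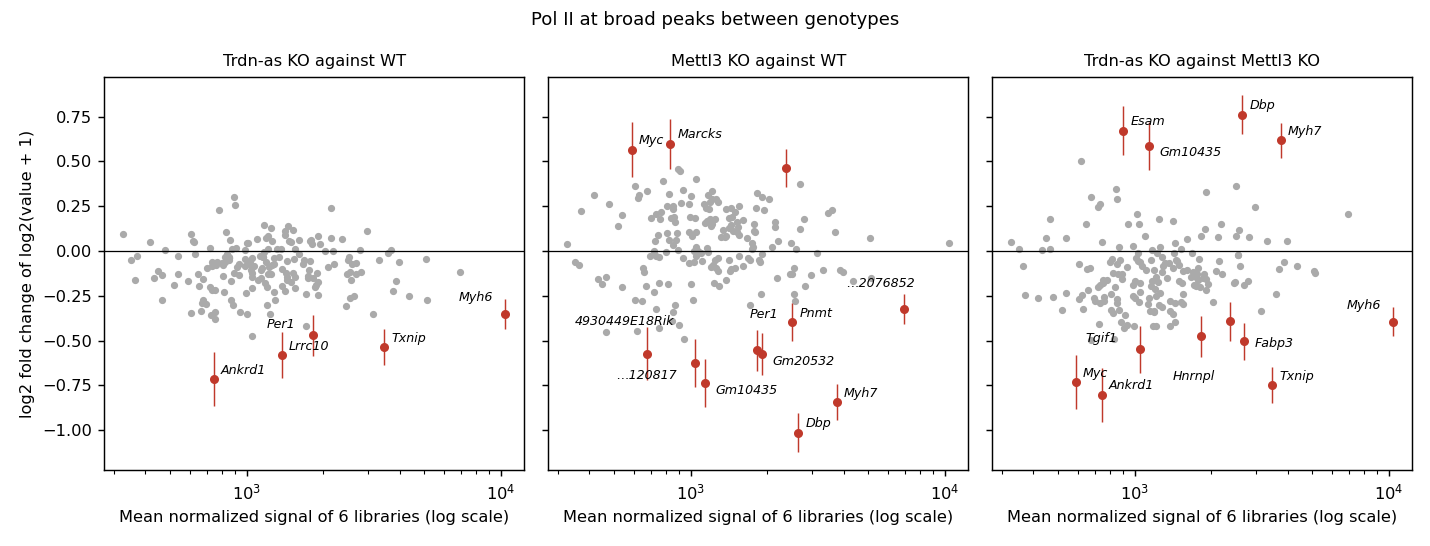
Mean normalized signal of the 6 Pol II libraries (log scale) against the log2 fold change at 190 broad peaks, in 3 comparisons. Red points with bars (± SE) passed an adjusted p of 0.05: 5 in *Trdn-as* KO against WT, 12 in *Mettl3* KO against WT and 12 in *Trdn-as* KO against *Mettl3* KO.

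In *Mettl3* KO hearts 12 broad peaks differed from WT: 9 had less Pol II signal and 3 had more. Lower were *Dbp*, *Myh7*, Gm10435 (a lncRNA), Gm20532 (over *Egfl7* and *Agpat2*), *Per1*, ENSMUSG00000120817, *4930449E18Rik*, ENSMUSG00002076852 and *Pnmt* (over *Tcap*). Among the higher were *Marcks* and *Myc*. *Txnip*, lower in *Trdn-as* KO, had a log2 fold change of 0.21 here and was not called (limma adjusted p = 0.29). The 12 are 6.32% of the broad peaks, against 1.19% of all 52655 tested (0.482% lower and 0.712% higher) and 2.21% of mid-length peaks. Both *Mettl3* KO libraries were above both WT libraries at 88 broad peaks and below at 59, against 31.2% and 19.5% of all peaks tested. The median log2 fold change was 0.04 for broad peaks and 0.08 for all peaks tested, but 0.17 for all with a gene ID on chromosomes 1 to 19, 0.21 for mid-length peaks and 0.24 for those of at least 1000 and under 2000 nt. At an unadjusted p below 0.05 there were 52 broad peaks. Both knockouts were compared with the same WT libraries.

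*Dbp* had the largest change of the 190: 3291 and 3501 (WT), 3267 and 2482 (*Trdn-as* KO), and 1710 and 1650 (*Mettl3* KO). Signal in *Mettl3* KO was 49.5% of WT, a log2 fold change of -1.01 ± 0.11 (limma adjusted p = 2.7e-09). *Per1* had 1531 and 1572 (*Mettl3* KO), below both WT libraries, with a log2 fold change of -0.56 ± 0.11 (limma adjusted p = 0.0039). Of the 3 other clock genes with broad peaks, *Nr1d1*, *Bhlhe40* and *Nfil3*, none was called. Over the whole clock list, taking for each gene the peak with the most Pol II signal, 6 of 19 were lower and 2 higher in *Mettl3* KO, and 1 of 19 lower in *Trdn-as* KO, beside 0.482% lower and 0.712% higher of all peaks tested in *Mettl3* KO and 0.224% lower in *Trdn-as* KO. Counted the same way in *Mettl3* KO, 6 of 9 fibroblast markers, 3 of 23 genes of fatty acid use and 2 of 16 calcium-handling genes were higher, and 1 of 16 calcium-handling genes and 1 of 30 sarcomere genes were lower. Of 12 fetal and stress genes 1 was higher and 1 lower, 1 of 17 immediate early genes and 1 of 7 smooth muscle markers were higher, and no gene of the other lists was called. The list peaks were taken for their high signal, so all peaks tested are not a like reference for these counts. In *Mettl3* KO 6.32% of broad and 2.21% of mid-length peaks were called. The hour at which hearts were taken is not given in the sources used here, so its part in these values was not tested.

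*Myh7* had 4531 and 4807 (WT), 4451 and 3581 (*Trdn-as* KO), and 2586 and 2617 (*Mettl3* KO). Its signal in *Mettl3* KO was 55.8% of WT, a log2 fold change of -0.84 ± 0.10 (limma adjusted p = 3.7e-08). The neighboring *Myh6* peak had 11283 and 11566 (*Mettl3* KO), within or just above the WT range, with a log2 fold change of 0.04 ± 0.08 (limma adjusted p = 0.84). Gm10435 had 1249 and 1484 (WT) and 828 and 802 (*Mettl3* KO), a log2 fold change of -0.74 ± 0.13 (limma adjusted p = 6.1e-04). Of the 14 sarcomere and Z-disc genes with broad peaks, *Myh7* was the only one called against WT for *Mettl3* KO, while *Ankrd1* and *Myh6* were called for *Trdn-as* KO. The median log2 fold change of the 14 was 0.04 and -0.11, respectively.

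The other lower peaks had smaller changes. Gm20532 had 2213 and 2327 (WT) against 1582 and 1465 (*Mettl3* KO), a log2 fold change of -0.58 ± 0.12 (limma adjusted p = 0.0028). *Egfl7*, which this peak overlaps, is an endothelial marker. The summed Pol II signal of 11 of 12 endothelial markers with peaks was 5195 and 5532 (WT), 5587 and 4618 (*Trdn-as* KO), and 4413 and 4195 (*Mettl3* KO). The part of endothelial cells in the Gm20532 value was not tested, and fewer cells of a type cannot be told apart from less Pol II per cell in such samples. ENSMUSG00000120817, a lncRNA on chromosome 15, had 1242 and 1408 against 892 and 823 (log2 fold change -0.63, limma adjusted p = 0.0046). *4930449E18Rik*, a lncRNA whose peak overlaps *Ablim1*, had 767 and 843 against 529 and 551 (-0.57, limma adjusted p = 0.033). The 24562-nt peak of ENSMUSG00002076852 had 7544 and 7737 against 6051 and 6153 (-0.32, limma adjusted p = 0.039), and *Pnmt* 2713 and 2804 against 2130 and 2058 (-0.40, limma adjusted p = 0.041). At these 4 peaks no *Mettl3* KO value reached a WT value.

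Of the higher peaks, *Marcks*, which encodes an actin-binding substrate of protein kinase C, had 650 and 740 (WT) and 1023 and 1079 (*Mettl3* KO), a log2 fold change of 0.60 ± 0.14 (limma adjusted p = 0.015). *Myc*, a growth-promoting transcription factor gene, had 496 and 548 against 796 and 749, a log2 fold change of 0.57 ± 0.15 (limma adjusted p = 0.043). At both genes the *Mettl3* KO libraries were above the WT libraries. The summed signal of 9 fibroblast markers was also higher there, 3945 and 3933 against 1980 and 2170 (WT) and 2799 and 2082 (*Trdn-as* KO), while that of the 7 cardiomyocyte markers was 29917 and 30276 against 29432 and 31470 (WT). Of the cardiomyocyte sums *Myh6* gave 11283 and 11566 (*Mettl3* KO) and 10654 and 11527 (WT). The Cre transgene carries *Myh6* promoter sequence, so this sum is not a fixed reference for *Mettl3* KO. Whether fibroblasts contributed to the *Marcks* and *Myc* values was not tested.

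With either *Trdn-as* KO library left out 94 broad peaks passed, these 12 among them, with the spread taken from the WT and *Mettl3* KO pairs. Without either WT or either *Mettl3* KO library none passed, nor did any when scaled to uniquely mapped reads. The balance of directions changed with the scaling: scaled to the total signal in union peaks, 10 broad peaks were higher and 75 lower in *Mettl3* KO, scaled to the median ratio of peaks of at least 1000 and under 5000 nt 6 were higher and 104 lower, and with WT and *Mettl3* KO libraries alone 54 were higher and 37 lower.

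**Figure D5:**
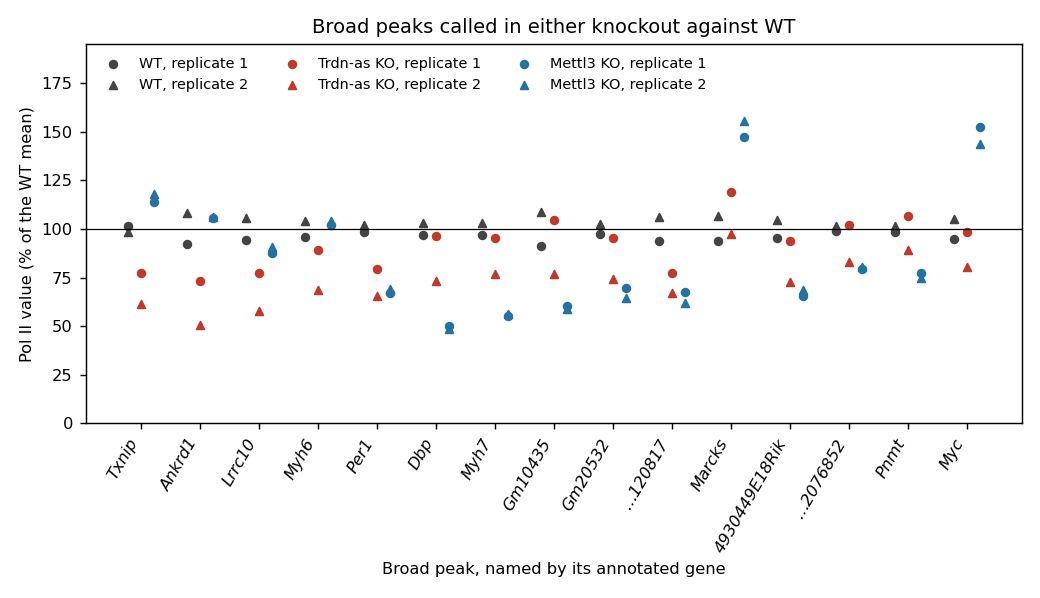
Pol II signal in each library as a percentage of the WT mean for 15 of the 16 broad peaks called in either knockout against WT (circles, replicate 1, and triangles, replicate 2). *Dbp* and *Myh7* are lowest in *Mettl3* KO, and *Marcks* and *Myc* highest, while at *Txnip* the knockouts lie on opposite sides of WT.

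Compared directly, 12 broad peaks differed between the knockouts. With more signal in *Trdn-as* KO were *Dbp* (log2 difference 0.76), *Myh7* (0.62), *Esam* (0.67) and Gm10435 (0.59). Among the 8 lower were *Ankrd1* (-0.80), *Txnip* (-0.75), *Myc* (-0.73), *Tgif1* (-0.55), *Fabp3* (-0.51), *Hnrnpl* (-0.48) and *Myh6* (-0.39). Over those named the limma adjusted p ran from 8.8e-07 at *Txnip* to 0.017 at *Hnrnpl*. The 12 are 6.32% of the broad peaks, against 1.5% of all peaks tested (0.355% higher and 1.15% lower). Both *Trdn-as* KO libraries were below both *Mettl3* KO libraries at 76 broad peaks and above at 16, against 29.9% and 13.9% of all peaks tested. *Per1*, lower than WT in both knockouts, did not pass here (log2 difference 0.08, limma adjusted p = 0.74).

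Of the 4 not called against WT, *Fabp3* had 2463 and 2556 (WT), 2550 and 2062 (*Trdn-as* KO) and 3281 and 3230 (*Mettl3* KO). *Esam*, an adhesion protein of endothelial junctions, had 912 and 929, 1133 and 1067, and 738 and 645. *Tgif1*, a homeobox repressor gene, had 985 and 961, 934 and 827, and 1323 and 1252, and *Hnrnpl*, a splicing regulator, 1699 and 1783, 1705 and 1441, and 2105 and 2260. At *Esam* the knockouts lay on opposite sides of WT, and so they did at *Tgif1*, with *Mettl3* KO above. At *Fabp3* and *Hnrnpl* both *Mettl3* KO libraries were above WT, and *Trdn-as* KO overlapped WT. Without *Trdn-as* KO replicate 2, 29 broad peaks passed, 20 higher and 9 lower, these 12 among them, but the WT and *Mettl3* KO pairs then give all of the spread. Without *Trdn-as* KO replicate 1 there were 139 calls, without WT replicate 1 or 2 there were 1 and 2, and without either *Mettl3* KO library none. In a model of the 4 libraries of both knockouts 1 broad peak was called, and scaled to uniquely mapped reads none. Scaled to the total signal in union peaks the balance turned to 52 higher and 16 lower.

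CTCF differed from WT at few broad peaks, and the direct comparison of the knockouts is not listed for CTCF. Against WT, *Esam* was higher in *Trdn-as* KO, and no other broad peak was called, 0.526% against 0.587% of 60649 peaks tested (0.348% higher and 0.239% lower). Its CTCF signal was 320 and 299 (WT), 416 and 480 (*Trdn-as* KO), and 238 and 235 (*Mettl3* KO), a log2 fold change of 0.53 ± 0.07 in *Trdn-as* KO (limma adjusted p = 4.6e-04). In *Mettl3* KO 4 were called, 2.11% against 0.185% of peaks tested (0.0989% higher and 0.0857% lower): *Myh6* was higher (0.67 ± 0.06, limma adjusted p = 6.9e-05), and *Ccnd2* (-0.43, adjusted p = 0.026), *Esam* (-0.39, adjusted p = 0.040) and *Dbp* (-0.34, adjusted p = 0.040) were lower. *Ccnd2*, the cyclin D2 gene, had 267 and 303 (WT) and 207 and 214 (*Mettl3* KO), and *Dbp* 297 and 296 against 227 and 240.

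The single IgG libraries moved the same way at each of these peaks. At *Esam* IgG was 237 in WT, 322 in *Trdn-as* KO and 152 in *Mettl3* KO, and 300 in WT against 184 in *Mettl3* KO at *Ccnd2*. At *Dbp* it was 463 against 359. In RPM per kb the direction was the same in all 5 cases. The part of background in the CTCF calls was not tested. Any single library left out ended the calls for CTCF in both comparisons, and scaled to the total signal in union peaks 2 were higher and 5 lower in *Trdn-as* KO, and 3 higher and 8 lower in *Mettl3* KO.

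At *Myh6* CTCF signal was 299 and 289 (WT), 340 and 322 (*Trdn-as* KO) and 455 and 480 (*Mettl3* KO), and IgG was 0.723, 0.927 and 1.19 RPM per kb in the same order. The Cre transgene of the *Mettl3* KO mice carries *Myh6* promoter sequence, so additional copies of that stretch and a change at the gene itself cannot be told apart in the *Myh6* peak of *Mettl3* KO.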

How the data were processed

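Pol II, CTCF and IgG ChIP-seq libraries of ventricles from mice of 3 genotypes (WT, *Trdn-as* KO, *Mettl3* KO) were used, and the 3 input libraries were not used here. Per the labels and methods, the authors trimmed reads with Trimmomatic 0.39, aligned them to mm39 (GRCm39) with STAR 2.7.11b, removed duplicates with Picard 3.1.1, merged the peaks of all libraries, counted reads with featureCounts and normalized them with DESeq2 1.36.0. The deposited values are a score, this normalized signal rounded to whole numbers, in 15 columns of single libraries. Their size factors set the scale between libraries. Peak coordinates are those deposited. Gene symbols missing for 21 broad peaks were taken from GENCODE M21 by gene ID for 12 of them.

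Because the values are normalized and rounded, limma 3.58.1 (R 4.3.3) was used, as planned for such values, on log2(value + 1), with the 3 genotypes in the model over the 6 libraries of a target, a variance trend, a filter of at least 10 in at least 2 libraries and Benjamini-Hochberg adjustment over all peaks tested, chromosomes X and Y included. Fold changes on this scale understate those of low values. The fit was tested on simulated data. RPM used the number of uniquely mapped reads that the study lists per library and the value of 1 read, 0.945 to 2.04 for Pol II and 2.55 to 6.57 for IgG, estimated from the spacing of values. On simulated data this estimate was less precise where 1 read was worth under 1, as in Pol II WT replicate 2. Depth limits precision, and no interval was given for single values. Single shares were compared by exact permutation. Python 3.11.15, pandas 2.3.3, scipy 1.17.1 and matplotlib 3.10.9 did the rest.

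The members and gene lists were chosen with earlier results of these data known. Named peaks are the 10 longest, the 10 densest and 5 least dense in WT, those within 50 nt of the length limit, *Myh6* and *Myh7*, up to 10 called members per direction and comparison whose libraries do not overlap, the 5 highest and lowest CTCF to Pol II ratios and up to 4 per gene list by WT density, and list members beyond these were named after their values were seen. The motifs were chosen after the sequences were seen. Alternatives were another pseudocount, no filter, 2 genotypes only, a replicate block, no variance trend, other scalings, autosomes only, an adjusted p of 0.01, other lengths and leaving out each library. Replicate numbers were not taken as pairs in the main model. Some items that the rule for named peaks would take are not reported here.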

Additional observations from a re-analysis of the deposited data

How the results depend on the processing

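Counts of broad peaks called depended strongly on the model, and the cause was not tested. For Pol II, given in the order *Trdn-as* KO against WT, *Mettl3* KO against WT and *Trdn-as* KO against *Mettl3* KO, 5, 12 and 12 were called. No filter on low values, no variance trend and scaling to uniquely mapped reads each gave 0, 0 and 0. Only the 2 genotypes compared gave 0, 91 and 1, scaling to total union peak signal 31, 85 and 68, an adjusted p of 0.01 gave 2, 6 and 8, and a length of at least 7500 nt 4, 5 and 5. Scaling to the median ratio of shorter peaks, chosen after seeing the data, gave 36, 110 and 87. Leaving out 1 library gave 0 to 93, 0 to 94 and 0 to 139. For CTCF, 1 (*Trdn-as* KO) and 4 (*Mettl3* KO) were called against WT. No filter, no trend and only the 2 genotypes gave 0 and 0, total scaling 7 and 11, a pseudocount of 5 gave 2 and 5, an adjusted p of 0.01 gave 1 and 1, and leaving out any library 0 to 0. Counts for Pol II stayed within 1.5 times with a pseudocount of 5, with chromosomes 1 to 19 only, with a length of at least 4000 nt and with peaks of no gene ID included. Among the values of named peaks under alternatives, 227 kept their call, 274 lost it and 0 changed direction. Replicate numbers were not taken as pairs in the main model: the correlations of same-numbered deviations were between -0.24 and 0.0059. From 2 libraries a genotype, such correlations cannot show that pairing or a batch was absent. A replicate block gave 3, 9 and 11 for Pol II and 1 and 1 for CTCF. Crossed numbers in the replicate block, added after seeing the data because of the correlation of -0.24 for CTCF, gave 2 for CTCF in *Trdn-as* KO. The share of signal in broad peaks (6.29%, 6.01% and 5.62% for WT, *Trdn-as* KO and *Mettl3* KO) became 8.85%, 8.54% and 8.11% from 4000 nt and 3.14%, 2.94% and 2.69% from 7500 nt, and was 6.26% to 6.31%, 5.96% to 6.06% and 5.56% to 5.68% with 1 library. The median WT density of 196 became 157 with IgG subtracted on the deposited scale, which is not a background-corrected density since size factors differ between targets, and was 194.5 or 195.02 with 1 library. With 2 libraries a genotype, and *Trdn-as* KO replicate 2 holding the fewest reads in union peaks of the Pol II libraries, a missed call does not show equal signal.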

Other observations

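A further 15 autosomal peaks of at least 5000 nt carried no gene ID and so were not among the broad peaks, and several lie in heart genes. The longest, 12026 nt on chromosome 14 from 34286302 to 34298327 (GRCm39), lies in or over *Ldb3*, a Z-disc gene that also has a broad peak of its own. Its Pol II signal was 2659 and 2772 (WT), 2870 and 2262 (*Trdn-as* KO) and 1819 and 1580 (*Mettl3* KO), with a log2 fold change for *Mettl3* KO of -0.68 ± 0.11 (SE, limma adjusted p = 1.4e-04). A peak of 5359 nt on chromosome 6, 137 nt from the broad peak of *Lmod2*, gave 741 and 815 (WT), 716 and 535 (*Trdn-as* KO) and 489 and 346 (*Mettl3* KO), a log2 fold change of -0.92 for *Mettl3* KO (limma adjusted p = 3.8e-04). A peak of 5446 nt at *Usp2*, a deubiquitinase gene, gave 1441 and 1465 (WT), 1332 and 1055 (*Trdn-as* KO) and 868 and 896 (*Mettl3* KO), a log2 fold change of -0.72 (limma adjusted p = 5.3e-04). One at *Gata4* was higher in *Mettl3* KO, 1462 and 1519 against 1073 and 1098 (0.46, limma adjusted p = 0.044).

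A peak of 8472 nt at *Itpkb*, an inositol trisphosphate kinase gene, was lower than WT in both knockouts, with 846 and 894 (WT), 612 and 483 (*Trdn-as* KO) and 632 and 509 (*Mettl3* KO). The log2 fold changes were -0.68 and -0.62 (limma adjusted p = 0.017 and 0.022). The 9387-nt peak that follows the broad *Tnnt2* peak after 62 nt was lower in *Trdn-as* KO than in WT, 1084 and 839 against 1294 and 1491 (-0.54, limma adjusted p = 0.035). These peaks were chosen after their values were seen.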
